A study of Drosophila melanogaster with 24 samples.

Results

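NaPi-III is the Drosophila melanogaster gene for a sodium-dependent phosphate transporter of the PiT family, and its level was measured here through 1 transcript, FBtr0076213, out of 16637 FlyBase transcripts on the array. The transcript was chosen by its range of mean log2 intensity between strains, known from earlier results on these arrays, so its strain ranges and its stage change are described below and were not tested. The gene name rests on an open reading frame of CG7628, named after this transcript, in a gene table of assembly Release 6. That table merges CG7628 and CR32078 into NaPi-III (CG42575, also called dPiT) and lists 2 RefSeq transcripts for it. No other row of the array was paired with NaPi-III, so its isoforms could not be compared, and no source used here says which of them the probes read.

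PiT proteins sit in the cell membrane and use the inward pull on sodium to carry inorganic phosphate into the cell. Phosphate is needed for nucleic acids, membrane lipids and ATP, and in insects the Malpighian tubules and the gut handle its excretion and uptake. In mammals the PiT transporters are found in many tissues and are regarded as housekeeping importers of phosphate. At the end of larval life the animal stops feeding, leaves the food and forms the puparium, after which it lives on stores laid down as a larva.

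Whole animals of 4 wild-type strains were sampled at 2 stages. The strains were Oregon-R, Canton-S, Samarkand and Zimbabwe-109. The late larva, labelled 18BPF, was late in the last larval instar, and the prepupa, labelled PF, was a white prepupa that had just formed its puparium. No transgene or mutation was named for any group. Rearing was at 25 °C on medium that held 0.05% bromophenol blue, and each replicate pooled 60 to 80 animals, about 120 mg. The 8 groups held 3 biological replicates each, and each replicate gave 1 single-colour array, 24 arrays in all. The sources used here do not give the sex. Each strain's RNA was extracted apart from the others, so strain and extraction cannot be told apart.

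Precision is limited by the small number of arrays per group. The median deposited intensity per array ran from 1936 to 3289, and the values were therefore taken to log2 and quantile normalized, which gives all arrays 1 distribution. Deposited values were spread most widely in Canton-S, where the log2 interquartile range averaged 1.56 ± 0.08 (SD over 6 arrays), compared with 1.23 to 1.24 in the other 3 strains. None of 30 marker genes of stage, tubule and gut that were looked for was paired with a row, so the labelled stages were checked only through unnamed transcripts, as described with the stage position of the arrays.

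Late larvae of Canton-S gave the highest NaPi-III intensity of any group. Whether the probes read each strain equally well was not tested. On the deposited linear scale the 3 Canton-S larval arrays read 6443, 6126 and 7724 for replicates 1, 3 and 4, and the 9 larval arrays of the other strains read between 1799 and 3790. Oregon-R larvae read 2236, 2325 and 2153 for replicates 2, 3 and 5. Canton-S larvae were thus far above the rest already as deposited, with 3.02 times the mean deposited intensity of Oregon-R larvae. Per the submitters' notes these values had been processed with RMA, and in Canton-S they were spread most widely. Samarkand larvae read 3230, 2971 and 2954 for replicates 2, 3 and 4. Zimbabwe-109 larvae read 3790, 1799 and 2871 for replicates 1, 3 and 4, the widest spread among the larval groups on the log2 scale.

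After quantile normalization the larval order was Canton-S, Samarkand, Zimbabwe-109 and Oregon-R, with mean log2 intensities of 12.59 ± 0.05, 11.41 ± 0.04, 11.33 ± 0.27 and 11.11 ± 0.03 (SD, n = 3 each). Every Canton-S larval array lay above every other larval array, as did 20.1% of all transcripts. Samarkand larval arrays lay between 11.39 and 11.46 and those of Oregon-R between 11.07 and 11.13. The share of all transcripts with a gap between these groups was not counted. Zimbabwe-109 larvae, at 11.57, 11.04 and 11.37, overlapped both of these neighbours in the order, so the place of Zimbabwe-109 between them is not settled by its spread.

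Prepupae kept Canton-S highest and Oregon-R lowest, over a narrower range. Canton-S prepupae read 4110, 3417 and 2836 on the deposited scale for replicates 1, 2 and 3, and the prepupae of the other strains read between 1527 and 2746. Oregon-R prepupae gave 2599, 1527 and 1847 for replicates 2, 3 and 5, and Samarkand prepupae gave 2746, 1745 and 2095 for replicates 1, 2 and 3. Zimbabwe-109 prepupae gave 1711, 2415 and 2658 for replicates 2, 3 and 4. As deposited, the prepupal arrays outside Canton-S were interleaved.

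In quantile-normalized values the prepupal order was Canton-S at 11.75 ± 0.21, Zimbabwe-109 at 11.14 ± 0.14, Samarkand at 10.97 ± 0.13 and Oregon-R at 10.87 ± 0.20 (SD, n = 3 each). The lowest Canton-S prepupal array, at 11.54, lay above the highest of the others, at 11.23. Of all transcripts, 12.8% had such a gap in prepupae and 7.79% had it at both stages. The other 3 strains overlapped in each of their pairs. Samarkand and Zimbabwe-109 thus changed places between stages, and at neither stage did these 2 strains separate. Canton-S as the highest and Oregon-R as the lowest strain at both stages is an arrangement shared by 622 transcripts, 3.74% of all.

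**Figure D1:**
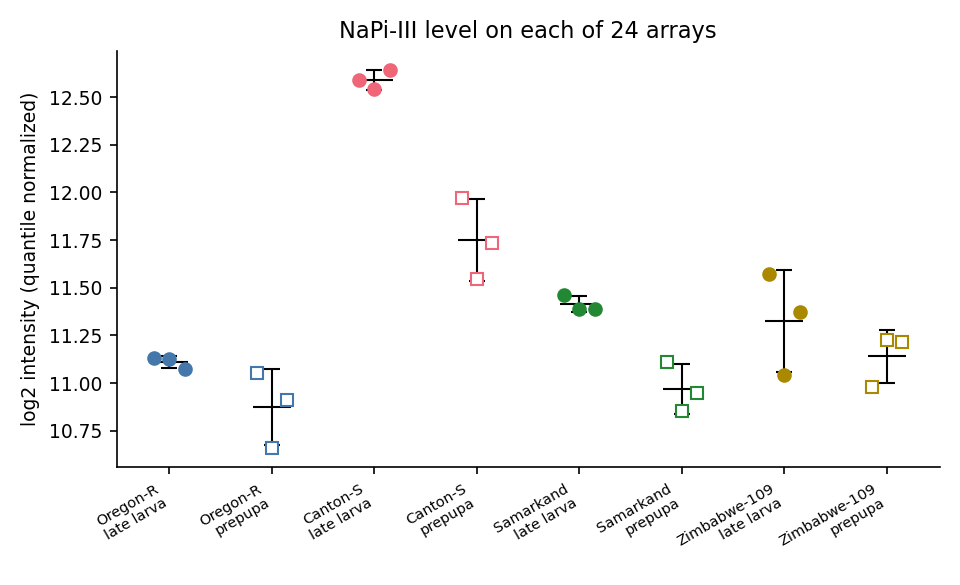
NaPi-III log2 intensity after quantile normalization on each of the 24 arrays, by strain and stage (filled circles, late larvae; open squares, prepupae); black bars are the group mean ± SD of 3 arrays. Canton-S larvae lie near 12.59, Canton-S prepupae between 11.54 and 11.97, and the arrays of the other strains between 10.66 and 11.57.

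Expressed as differences, Canton-S larvae exceeded Oregon-R larvae by 1.48 ± 0.12 on the log2 scale (SE of the fit), Zimbabwe-109 larvae by 1.26 and Samarkand larvae by 1.18. These correspond to 2.79-fold, 2.40-fold and 2.26-fold. In prepupae Canton-S exceeded Oregon-R by 0.88, Samarkand by 0.78 and Zimbabwe-109 by 0.61, or 1.84-fold, 1.72-fold and 1.53-fold. The 3 strains other than Canton-S spanned only 0.30 in larvae and 0.27 in prepupae in the same values. The strain range of NaPi-III is therefore set by Canton-S at its upper end, and the widest gap among the others was 1.24-fold, between Samarkand and Oregon-R larvae. With the 6 Canton-S arrays left out of both scaling and fit, the ranges were 0.289 and 0.255.

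The larval strain range of 1.48 was the 286th widest of 16637, within the widest 1.72%, against a median of 0.41 over all transcripts. A larval range of at least 1 was found in 1046 transcripts, 6.29% of all. The prepupal range of 0.88 ranked 721st, within the widest 4.33%, against a median of 0.35. Among the 16 transcripts that could be paired with 1 gene, NaPi-III ranked 1st at both stages in the range it was chosen by, and 4th in the size of the mean stage change. The transcripts next to it in the larval ranking had ranges of 1.4813 and 1.4808, and those next to it in the prepupal ranking 0.8768 and 0.8759, so no gap sets it off. Its larval range exceeded its prepupal range, as did that of 63.2% of transcripts.

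When each range was divided by the transcript's own pooled replicate SD, NaPi-III stood lower in the order. The larval ratio of 9.39 ranked 1330th and the prepupal ratio of 5.55 ranked 3589th. NaPi-III had a pooled replicate SD of 0.158, above the median of 0.103. With other scalings the larval rank stayed between 239 and 365, while the prepupal rank ran from 602 with normexp background correction to 1403 without scaling. Strain accounted for 72.5% of the variation of NaPi-III over the 24 arrays (median over all transcripts 45.6%), the 3189th highest share. The transcript was chosen by its strain range, so a strain share above the median is no separate result. Stage accounted for 15.9% (median 17.5%), the combination of strain and stage for 5.79% (median 5.82%) and replicates for 5.8% (median 15.8%).

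**Figure D2:**
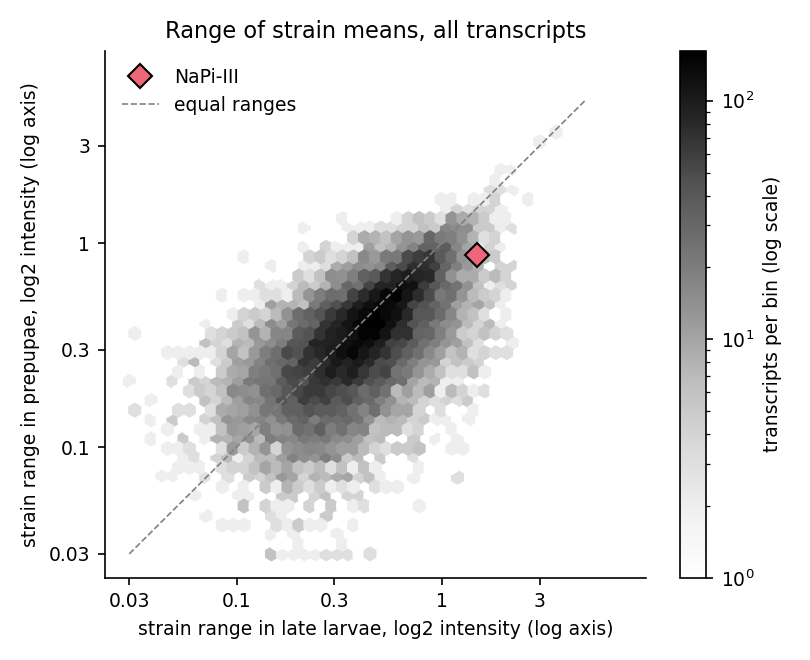
Range of the 4 strain means in late larvae (x axis) and prepupae (y axis) for all 16637 transcripts, in log2 intensity on log axes; grey shade counts transcripts per bin, values under 0.03 are drawn at 0.03, and the dashed line marks equal ranges. NaPi-III (diamond) lies at 1.48 and 0.88, at the wide edge in larvae and below the dashed line.

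NaPi-III stood lower in prepupae than in late larvae in the mean of each strain. Averaged over strains, log2 intensity averaged 11.61 over larvae and 11.18 over prepupae, a difference of -0.43 ± 0.06 (SE, 12 arrays per stage), or 1.34-fold. In whole animals, fewer cells of a type and less message per cell cannot be told apart. A lower prepupal mean in all 4 strains was found in 22% of transcripts. By size, the mean change ranked 2520th of 16637, with its neighbours in the ranking at the same 0.43, and it was the 1555th deepest decline.

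The estimated change differed in size between the 4 strains. It was -0.84 in Canton-S, -0.44 in Samarkand, -0.24 in Oregon-R and -0.19 in Zimbabwe-109 (SE 0.12 for each). The 95% intervals of the changes in Oregon-R (-0.49 to 0.02) and Zimbabwe-109 (-0.44 to 0.07) included 0. These intervals are read as descriptions and not as tests, and they rest on a spread shared by all groups. The change was -0.127 in Oregon-R without prepupal replicate 3 and -0.0663 in Zimbabwe-109 without larval replicate 1. Strain and replicate number as a block gave 0.0145 in Zimbabwe-109, where only replicates 3 and 4 occur at both stages and enter that change. Canton-S prepupae held 0.559 times the larval level. In Canton-S, Samarkand and Oregon-R all larval arrays lay above all prepupal arrays, which was so for 23%, 25.2% and 16.3% of transcripts in these strains. The gap in Oregon-R was narrow, from 11.07 to 11.05, and was absent in the deposited values, where prepupal replicate 2 at 2599 exceeded all 3 larval arrays. In Zimbabwe-109 the stages overlapped, since larval replicate 3 at 11.04 lay below prepupal replicates 3 and 4 at 11.23 and 11.22. In that strain 17.1% of transcripts had larval arrays all above prepupal arrays. By depth of decline the change ranked 1140th in Canton-S, 1738th in Oregon-R, 1795th in Samarkand and 2632nd in Zimbabwe-109.

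**Figure D3:**
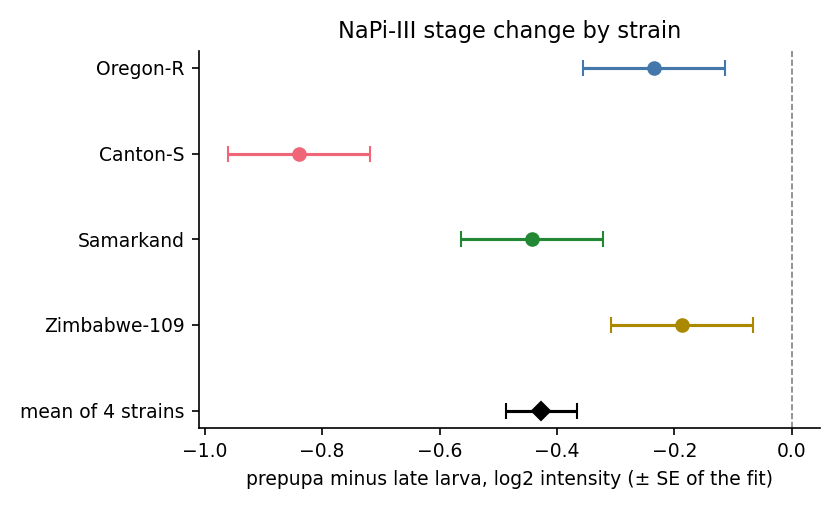
Stage change of NaPi-III, prepupa minus late larva, in log2 intensity for each strain and for the mean of the 4 strains; bars are ± 1 SE of the fit and the dashed line marks no change. The change runs from -0.84 in Canton-S to -0.19 in Zimbabwe-109.

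The 4 changes spanned 0.65, the 1671st widest span of 16637. The change in Canton-S was the deepest. Canton-S minus Oregon-R gave a difference of changes of -0.60, Samarkand minus Canton-S 0.40 and Zimbabwe-109 minus Canton-S 0.65 (SE 0.17 for each). Samarkand minus Oregon-R gave -0.21, Zimbabwe-109 minus Oregon-R 0.05 and Zimbabwe-109 minus Samarkand 0.26, with the same SE. The 95% intervals of these differences without Canton-S were -0.57 to 0.15, -0.31 to 0.41 and -0.10 to 0.61, so each included 0. Those of the differences with Canton-S, in the order given, were -0.96 to -0.25, 0.04 to 0.76 and 0.295 to 1.01. All of them are built from the group means that chose the transcript.

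Limma's moderated F fit of the interaction between strain and stage gave NaPi-III an adjusted p of 0.0237 over all transcripts, and 23.6% of all transcripts lay below 0.05. This p is given as a description and not as a test, because it is built from the same 8 group means whose strain ranges chose the transcript. The adjusted p was 0.555 without Canton-S, 0.397 without scaling, 0.132 with normexp and 0.0589 with strain and replicate number as a block. In that block only arrays with a same-numbered array at the other stage enter the stage changes. It rose above 0.05 when larval replicate 1 (0.0524) or 4 (0.0711) or prepupal replicate 2 (0.0795) or 3 (0.0585) of Canton-S was left out.

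The larvae of the strains also lay at different points along the change between stages, and the larval means of NaPi-III had the same order. For each strain, transcripts other than NaPi-III that differed at least 2-fold between the stage means of the other 3 strains were taken, between 506 and 779 of them, so that the transcripts and both ends of the scale differ between strains. Each array was placed by their median on a scale from 0 (larval mean of those strains) to 100 (prepupal mean). Canton-S larvae lay at -23.8 ± 1.2, Samarkand larvae at -12.8 ± 4.6, Zimbabwe-109 larvae at 13.4 ± 11.4 and Oregon-R larvae at 38.9 ± 3.7 (SD, n = 3 each). The mean larval levels of NaPi-III were lower step by step in that order, from 12.59 to 11.11, as were those of 10.9% of transcripts. The arrays of Zimbabwe-109 overlapped those of both its neighbours in NaPi-III, so the order of the middle strains is not settled. The part of this position in the larval strain differences was not tested.

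Prepupae of 3 strains lay close together on this scale, with Canton-S at 100 ± 1.8, Samarkand at 102 ± 2.1 and Oregon-R at 105 ± 2.0. Zimbabwe-109 prepupae were more spread, at 93.1 ± 11.6. Canton-S prepupae had 0.88 more NaPi-III than Oregon-R prepupae and 0.78 more than Samarkand prepupae. Samarkand and Canton-S larvae had the lowest mean positions, each on its own scale, and their NaPi-III levels differed by 1.18. The part of stage position in these differences was not tested. In Zimbabwe-109, larval replicate 4 lay at 24 and prepupal replicate 2 at 79.7, each nearer to the other stage than the strain's other arrays. Their NaPi-III values were 11.37 and 10.98, and without both arrays the stage change in that strain was -0.0841 in place of -0.187, while the mean over strains was -0.403 and the adjusted p of the interaction 0.0201.

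**Figure D4:**
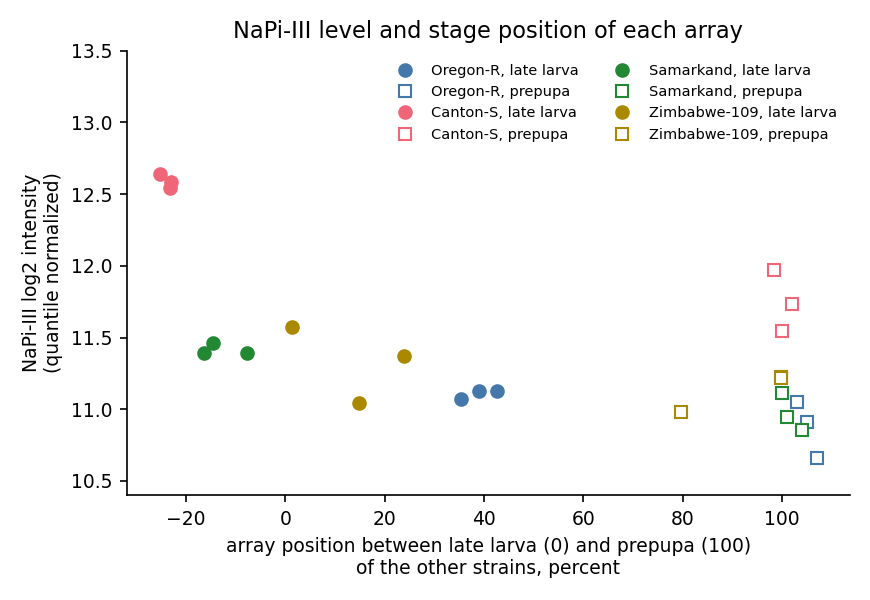
NaPi-III log2 intensity (y axis) against the position of each of the 24 arrays between the late larval mean (0) and the prepupal mean (100) of the other strains (x axis, percent), by strain and stage. Canton-S larvae lie farthest left and highest, Oregon-R larvae lie between 35.3 and 42.6 with the lowest larval mean, and Canton-S prepupae stand above other prepupae at nearly the same position.

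The spread of NaPi-III between replicates was uneven. Its SD was 0.03 to 0.05 in larvae of Oregon-R, Samarkand and Canton-S, and 0.13 to 0.27 in the other 5 groups, whereas the fit assumes 1 spread for all. The deviations of all other transcripts from their group means had 1 main axis (the leading principal component), which held 54.7% of the variation between replicates. Of the replicate variation of NaPi-III, 95.2% lay along this axis, against a median of 48.5% over all transcripts, the 217th highest share of 16637.

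In each of the 8 groups the array with the lowest score on the axis was the one with the most NaPi-III, a pattern shared by 1.92% of transcripts. In 7 groups the array with the highest score had the least. Zimbabwe-109 larval replicate 1, with a score of -16.7, stood 0.24 above its group mean, and replicate 3, with a score of 19.4, stood 0.29 below it (deviation -0.29). In Canton-S prepupae, replicate 1 scored -20.7 and deviated by 0.22, and replicate 2 scored 13.8 and deviated by -0.21. The slope over all arrays was -0.122 on the log2 scale per 10 units of score. The axis was weakly related to the stage change, with r = 0.221 between its loadings and the mean stage change across 16636 transcripts, which are not independent replicates and share the same arrays. The direction of the axis was set so that this r is positive, so its sign is no result. The sign of the slope depends on the same choice. In 5 of the 8 groups the lowest-scoring array was also the brightest as deposited. The part of the axis in the strain and stage differences of NaPi-III was not tested.

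**Figure D5:**
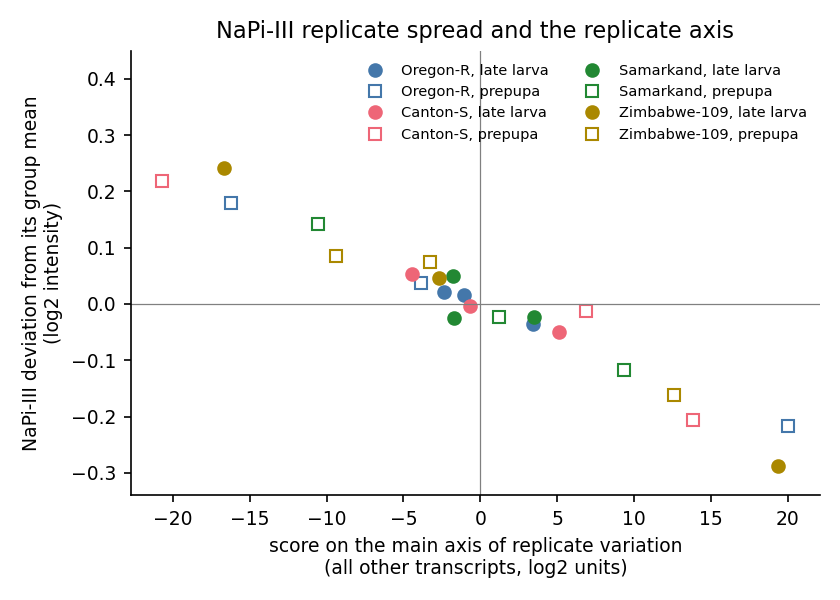
Deviation of NaPi-III from its group mean in log2 intensity (y axis) against each array's score on the main axis of replicate variation of all other transcripts (x axis), by strain and stage. Deviations decline from 0.22 and 0.24 at the lowest scores to -0.22 and -0.29 at the highest.

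Transcripts with the most similar pattern were ranked by Pearson r with NaPi-III over the 24 arrays, which share scaling, strain and stage. There were 180 transcripts with r above 0.9, 1.08% of the others, and 405 with r below -0.9, 2.43%. The most similar were FBtr0273243 (r = 0.978) and FBtr0074348 (r = 0.968), and the most opposite FBtr0070532 (r = -0.979) and FBtr0084922 (r = -0.968). None of these 4 could be paired with a gene name. FBtr0074348 stood at 11.55 in Canton-S larvae and between 10.88 and 11.06 in other larvae, and at 11.19 in Canton-S prepupae. Its range of 0.66 in larvae was narrower than that of NaPi-III. FBtr0070532 was lowest in Canton-S larvae, at 10.01, and highest in Oregon-R prepupae, at 11.04.

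Over the 18 arrays of the strains other than Canton-S, 105 transcripts had r above 0.9 and 266 had r below -0.9. Of the 180, 13 kept r above 0.9, and of the 405, 62 kept r below -0.9. The 4 transcripts given by identifier were among those that kept it, with r of 0.91, 0.949, -0.942 and -0.92 over these 18 arrays in the order given. A list of 29 genes of phosphate handling and related transport was looked up, and no member was paired with a row of the array, so no other gene of phosphate transport could be set beside NaPi-III.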

How the data were processed

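The authors deposited 1 table of array intensity values on a linear scale, whole numbers for 16637 transcripts and 24 arrays. Per the submitters' processing notes RMA was used; its version and a genome build were not given in the sources used here. Array medians differed, so intensities were taken to log2 and quantile normalized in limma version 3.58.1 (R version 4.3.3). Groups came from the labels and replicate numbers from the title's final digit. All 24 arrays entered 1 linear model with a mean per group, which left 16 residual degrees of freedom, with empirical Bayes moderation. Interaction p-values were Benjamini-Hochberg adjusted over all transcripts and are read as descriptions. No transcript was filtered out. The fit was also run on simulated arrays with independent noise and 1 SD per transcript. That simulation left out the shared replicate axis and the uneven group spreads, so it does not bear on them.

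The transcript, lists and tests were chosen with earlier results of these data known. Stage position and replicate axis were added after the values were seen. The 2 transcripts of highest and the 2 of lowest r with NaPi-III were named by rule. Of the 16637 identifiers, 44 were in the gene table: 16 belonged to 1 gene and 28 to several. Alternatives were median centring, no scaling, normexp (offset 50), a filter on the dimmest 30%, a trended robust prior, replicate blocks, and leaving out Canton-S, 2 Zimbabwe-109 arrays or each array in turn.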

Additional observations from a re-analysis of the deposited data

Results flagged for a closer look

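The interaction of strain and stage in NaPi-III had an adjusted p of 0.0237 in limma's moderated F fit. The transcript was chosen by strain ranges in the same 8 group means, so this is no independent evidence of a difference, and its share of variation in the interaction, 5.79%, was close to the median of 5.82% over all transcripts. The fit had changes of -0.84 in Canton-S, -0.44 in Samarkand, -0.24 in Oregon-R and -0.19 in Zimbabwe-109. The 95% intervals in Oregon-R and Zimbabwe-109, also read as descriptions, included 0. With the replicate block within strain, which uses only same-numbered pairs, the change in Zimbabwe-109 was 0.0145. Over the alternatives the adjusted p ran from 0.00133 with median centring to 0.555 without Canton-S. Single outlying arrays were not searched for, since groups of 3 are too small for that rule.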

How the results depend on the processing

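With normexp the larval range was 1.95, the prepupal range 1.31 and the mean stage change -0.598, with -0.396 in Oregon-R, -1.03 in Canton-S and -0.688 in Samarkand. With median centring the larval range was 1.83 and the change in Canton-S -1.12. Without Canton-S the ranges were 0.289 and 0.255. The adjusted p of the interaction was 0.397 without scaling, 0.132 with normexp, 0.555 without Canton-S and 0.0589 with the replicate block within strain; the number of transcripts past that test, 3922 in the main setting, was 1064, 3922, 1587 and 1926 in the same order. The replicate block within strain gave no strain range, since strains share no block. Its stage changes rest on the 9 same-numbered pairs. In Zimbabwe-109, with replicates 3 and 4 only, the change was 0.0145. The replicate number alone as a block gave an adjusted p of the interaction of 0.0114, also read as a description, and a mean stage change of -0.407. Same-numbered larval and prepupal samples showed no clear pairing. Their deviations correlated between -0.632 and 0.422 in 9 pairs, with r over 0.1 in 5, and 2 larval samples correlated best with their own number. With so few arrays per group this cannot show that samples were unpaired.

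With each array left out in turn the larval range ran from 1.44 to 1.5, the prepupal range from 0.762 to 0.974 and the mean change from -0.462 to -0.398. The change ran from -0.326 to -0.127 in Oregon-R, -0.94 to -0.732 in Canton-S, -0.516 to -0.384 in Samarkand and -0.331 to -0.0663 in Zimbabwe-109. The adjusted p ran from 0.00639 to 0.0795, above 0.05 in 4 of 24 cases, and the count from 3144 to 4642. Causes were not tested. No background or detection values were used, so signal over background limits every fold.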
